A study of Mus musculus with 45 samples.

Results

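The genes described here encode chemokine receptors that lymphocytes use to enter and stay in tissues: Cxcr6, Ccr3, Ccr1, Cxcr3, Ccr8, Ccr4, Ccr6, Cxcr4 and Cx3cr1. They were chosen by gene symbol, and all 9 were found among the 27179 genes of the deposited count table. They are followed over 27 of the 45 mouse libraries of the series: 19 of sorted T cells, 4 of group 2 innate lymphoid cells (ILC2) and 4 of GP38-negative stromal cells. The study asked how regulatory T cells (Treg, the Foxp3-expressing T cells that restrain immune responses) of visceral adipose tissue (VAT) differ between male and female mice. All mice were C57BL/6. VAT Treg (RFP+) and VAT CD4 T cells (RFP-) came from male and female Foxp3RFP reporter mice, in which a red fluorescent protein marks Foxp3-expressing cells, aged 25 weeks. Spleen Treg came from Foxp3RFP mice of both sexes with no age on the label. YFP+ Treg of spleen and VAT came from 25-week-old male Foxp3cre mice and Blimp1fl/flFoxp3cre mice, in which Cre driven by Foxp3 is meant to delete Blimp1, a transcriptional regulator encoded by Prdm1. The Foxp3cre mice carry the same Cre without the floxed allele. ILC2 were sorted as Lin-CD25+ST2+KLRG1+ and the stromal cells as CD45-, Ter119- and GP38-, both from VAT of 25-week-old males and females. Each library pooled 3 to 5 mice. Of the 14 groups, 13 had 2 libraries each and Foxp3cre VAT Treg had 1. Whole VAT, VAT adipocytes and GP38-positive stroma, all from 25-week-old males and females, were also read, for receptors or their ligands. Whole VAT had 3 libraries per sex, and the adipocytes and GP38-positive stroma had 2 per sex. Titles of the whole VAT libraries carry the letters ND, whose meaning the titles do not give.

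Chemokine receptors are G protein-coupled receptors that steer a cell along gradients of secreted chemokines. CXCR6 binds CXCL16, CCR3 binds the eotaxins CCL11 and CCL24, CCR1 binds CCL3, CCL5 and related ligands, CXCR3 binds the interferon-induced CXCL9 and CXCL10, CCR8 binds CCL1, CCR4 binds CCL17 and CCL22, CCR6 binds CCL20, CXCR4 binds CXCL12 and CX3CR1 binds the tethered chemokine CX3CL1. In VAT, Treg and ILC2 form resident populations known to respond to interleukin 33 through the receptor ST2.

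Of the 9 genes, 6 lie on chromosome 9. In RefSeq coordinates of GRCm38.p6, Cxcr6 lies at chr9:123806477-123811754, Ccr1 at chr9:123962126-123968692 and Ccr3 at chr9:124017825-124031692, in 1 run of receptor genes. Ccr4 (chr9:114490316-114505476), Cx3cr1 (chr9:120048683-120068296) and Ccr8 (chr9:120092133-120094906) lie elsewhere on that chromosome. Cxcr4 is at chr1:128588199-128592299, Ccr6 at chr17:8236041-8258519 and Cxcr3 at chrX:101731535-101734147. The 4 promoters that follow belong to the genes whose levels set male VAT Treg apart from female VAT Treg or from spleen Treg. Each holds 250 bases before and 50 after a RefSeq start site, 5′ to 3′ on the gene's strand, with motif matches in capitals. They were Cxcr6 (chr9:123806227-123806526, plus strand), Ccr1 (chr9:123968643-123968942, minus strand), Ccr3 (chr9:124021721-124022020, plus strand) and Cxcr3 (chrX:101734098-101734397, minus strand).
Cxcr6: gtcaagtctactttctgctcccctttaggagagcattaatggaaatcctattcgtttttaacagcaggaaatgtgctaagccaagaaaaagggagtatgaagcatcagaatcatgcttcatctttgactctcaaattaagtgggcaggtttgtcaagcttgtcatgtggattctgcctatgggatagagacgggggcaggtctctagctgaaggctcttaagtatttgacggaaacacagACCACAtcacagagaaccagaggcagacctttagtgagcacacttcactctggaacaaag
Ccr1: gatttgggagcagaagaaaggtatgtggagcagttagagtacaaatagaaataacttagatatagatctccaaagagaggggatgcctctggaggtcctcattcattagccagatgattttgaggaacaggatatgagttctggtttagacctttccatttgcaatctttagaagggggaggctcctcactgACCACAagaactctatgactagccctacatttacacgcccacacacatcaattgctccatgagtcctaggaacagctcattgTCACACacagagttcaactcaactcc
Ccr3: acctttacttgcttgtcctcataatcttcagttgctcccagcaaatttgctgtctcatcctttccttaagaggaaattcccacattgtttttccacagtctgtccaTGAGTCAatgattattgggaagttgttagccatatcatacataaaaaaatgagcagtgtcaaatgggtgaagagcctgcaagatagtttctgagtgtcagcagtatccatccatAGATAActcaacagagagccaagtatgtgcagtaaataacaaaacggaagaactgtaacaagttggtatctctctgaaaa
Cxcr3: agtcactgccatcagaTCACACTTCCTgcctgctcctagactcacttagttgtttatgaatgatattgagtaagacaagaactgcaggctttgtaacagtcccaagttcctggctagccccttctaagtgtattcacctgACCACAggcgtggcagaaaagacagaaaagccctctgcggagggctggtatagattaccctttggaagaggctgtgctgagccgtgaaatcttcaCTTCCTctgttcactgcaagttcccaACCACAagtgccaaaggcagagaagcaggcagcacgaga
The motifs were searched on both strands as a GATA motif AGATAA, an AP-1 motif TGANTCA, a T-box motif TCACAC, an ETS motif AGGAAG, a Runt motif ACCACA and a STAT motif TTCNNNGAA. The first bases of the matches are counted from the start site. Cxcr6 had a Runt match at -10. Ccr1 had a Runt match at -58 and a T-box match at 24. Ccr3 had an AP-1 match at -144 and a GATA match at -30. Cxcr3 had a T-box match at -234 that adjoins an ETS match, whose first base at -229 is the last of the T-box match, a second ETS match at -15, and Runt matches at -110 and 11. Among 32851 promoters of this length the share with a match was 11.2% for GATA, 7.81% for AP-1, 14.5% for T-box, 35.4% for ETS, 16.8% for Runt and 8.3% for STAT. These matches are a description of the letters in the windows.

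The libraries described held between 11297674 and 61913009 reads assigned to genes. Levels are given in CPM, counts per 1000000 assigned reads. Foxp3 was at 429 to 754 CPM in VAT Treg of Foxp3RFP mice and at 113 and 189 CPM in the VAT libraries labelled Blimp1fl/flFoxp3cre, against at most 4.5 CPM in VAT CD4 T cells and 0.4 CPM in ILC2. Treg markers, such as Foxp3 and Il2ra, together reached 1428 and 1256 CPM in the VAT libraries labelled Blimp1fl/flFoxp3cre. In the Foxp3cre VAT library their sum was 3169 CPM. Prdm1 RNA was not lower in the libraries labelled Blimp1fl/flFoxp3cre: in VAT it was at 121 and 148 CPM against 73.1 CPM in the library labelled Foxp3cre, and in spleen at 60.8 and 41.2 against 25.0 and 16.3 CPM. Gene-level reads cannot tell whether a part was deleted. The title and tissue label of the Foxp3cre VAT library say VAT while its source text says spleen. Its adipocyte marker genes summed to 492.9 CPM, against 4.05 and 15.6 CPM in the Foxp3cre spleen libraries. GP38-negative stroma, sorted without the leukocyte protein CD45, held 791 to 1995 CPM of the 3 leukocyte markers Ptprc, Coro1a and Laptm5, against 5591 to 7930 CPM in T cells and 4.3 to 38.8 CPM in GP38-positive stroma. Its libraries also held 2914 to 4437 CPM of fibroblast, 2151 to 3019 CPM of endothelial, 7911 to 13407 CPM of adipocyte and 2206 to 3051 CPM of B cell markers, and 2.5 to 19 CPM of Pdpn, the gene of GP38, against 276 to 304 CPM in GP38-positive stroma.

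Cxcr6 was the highest of the 9 genes in male VAT Treg of Foxp3RFP mice, in ILC2 and in GP38-negative stroma, and Cxcr4 was the highest in female VAT Treg and in VAT CD4 T cells of both sexes. Levels of different genes are compared here on the authors' deposited log2 FPKM scale, which divides by gene length. In male VAT Treg the mean log2 FPKM ran from Cxcr6 (9.54) through Cxcr4 (8.37), Ccr1 (7.33), Cxcr3 (6.63), Ccr3 (6.61), Ccr8 (6.29), Ccr4 (5.36) and Cx3cr1 (2.02) to Ccr6 (0.94). In female VAT Treg it ran from Cxcr4 (9.42) through Cxcr3 (8.54), Ccr8 (7.30), Cxcr6 (6.07), Ccr4 (5.78), Ccr6 (3.62), Ccr3 (3.47) and Ccr1 (3.14) to Cx3cr1 (1.5). Cxcr6 had rank 1 in males and 4 in females, Ccr1 rank 3 and 8, and Ccr3 rank 5 and 7. In VAT Treg of the Cre lines Cxcr4 led, at a log2 FPKM of 9.51 against 9.14 for Cxcr6 in Foxp3cre and 9.68 against 6.71 in the libraries labelled Blimp1fl/flFoxp3cre. In ILC2 the leading log2 FPKM were those of Cxcr6 (10.74 in females, 10.96 in males) and Ccr8 (10.24 and 10.57), far above Cxcr4 in the next place (5.91 and 6.30). VAT CD4 T cells were led by Cxcr4 (9.71 in females, 9.19 in males), Cxcr3 (7.91 and 8.43) and Cxcr6 (7.50 and 7.96).

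**Figure D1:**
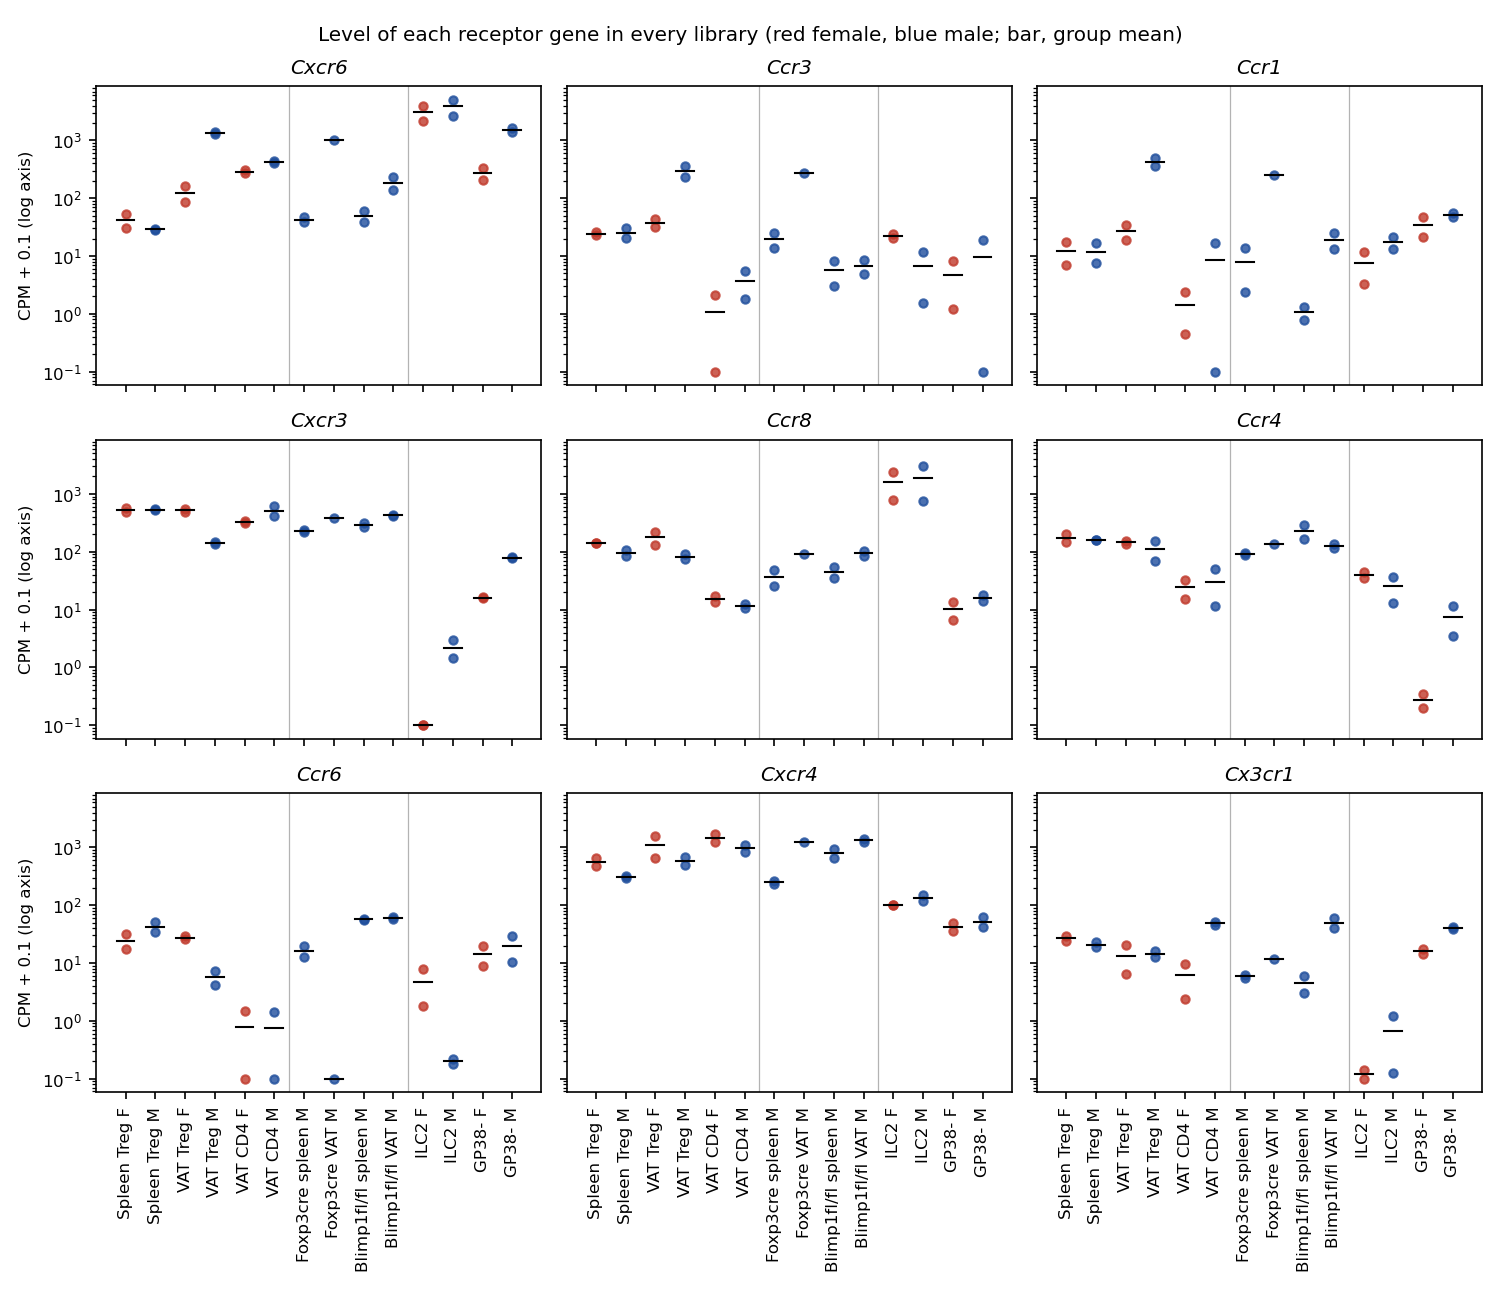
Level of each of the 9 receptor genes in every library described, in CPM + 0.1 on a log axis; each point is 1 library, red for female and blue for male, and each bar is the group mean. Grey lines separate Foxp3RFP T cells, Foxp3cre and Blimp1fl/flFoxp3cre Treg, and ILC2 with GP38-negative stroma. Male VAT Treg and the Foxp3cre VAT library stand above the other T cell libraries for Cxcr6, Ccr3 and Ccr1, and male VAT Treg stand below them for Cxcr3.

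The first comparison asked how these receptors differ between male and female VAT Treg. Cxcr6 and Ccr3 were higher and Cxcr3 was lower in males, and the other 6 genes did not pass the threshold. These 3 of 9 genes stand beside 1.61% of all 17340 genes called in the comparison. A gene is called here at a Benjamini-Hochberg adjusted p under 0.05 in edgeR's quasi-likelihood test, fitted over all 19 T cell libraries. P-values rest on the spread between pools of mice, estimated over all T cell groups and not from the compared groups alone. In bulk libraries, more cells of a kind and more RNA per cell cannot be told apart.

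Cxcr6, known from T cells and innate lymphocytes resident in tissues, was at 1408 and 1305 CPM in male VAT Treg. In female VAT Treg it was at 87.2 and 162 CPM. The sexes were far apart, with group means of 1357 ± 72.9 and 125 ± 53.0 CPM (SD, n = 2 each). The log2 fold change was 3.6 (SE 0.33, edgeR adjusted p = 7.37e-06). Markers listed for ILC2, cells in which Cxcr6 was also high, moved with it, at a sum of 7649 and 5540 CPM in male against 725 and 597 CPM in female VAT Treg. Several of them, such as Il1rl1 (the gene of ST2) and Klrg1, are also known from Treg of tissues. Il1rl1 was at 2367 and 1913 CPM in male VAT Treg, while Arg1 was at 1.46 and 4.58 CPM, against 1130 to 2512 CPM in ILC2. Il5 was at 24.1 and 26.7 CPM in male VAT Treg, 1.54 and 1.74 CPM in female VAT Treg, with 509 to 1512 CPM in ILC2. The part of ILC2 in the levels of Cxcr6 was not tested. Cxcr3, typical of T cells in interferon-rich sites, went the other way. It was at 147 and 137 CPM in males against 492 and 557 CPM in females, with no overlap and little spread within a sex. Its log2 fold change was -1.74 (SE 0.21, edgeR adjusted p = 1.28e-04). Both genes passed the threshold without any 1 of the 4 libraries compared. With only the 4 libraries compared in the fit, neither passed, at an adjusted p of 0.126 for Cxcr6 and 0.138 for Cxcr3.

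Ccr3, best known as the eotaxin receptor of eosinophils, was at 357 and 233 CPM in male VAT Treg. In female VAT Treg it was at 31.4 and 42.8 CPM, so the lowest male library was well above the highest female library. The log2 fold change was 3.15 (SE 0.72, edgeR adjusted p = 0.0315). This call was lost without female replicate 1 (adjusted p = 0.435), female replicate 2 (0.152) or male replicate 1 (0.257), and with only the 4 libraries compared (0.138). Mast cell and eosinophil markers together reached 84.7 and 51.6 CPM in male against 5.85 and 37.0 CPM in female VAT Treg. Of the male sums, Kit made 73.1 and 24.5 CPM, while the eosinophil gene Epx and the mast cell gene Mcpt4 were at 0, and Siglecf at no more than 0.614 CPM. The rest of both sums came from other mast cell and eosinophil markers of the list, whose levels are not given here. The part of such cells in the levels of Ccr3 was not tested.

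Ccr1, widely expressed on myeloid cells, had the most positive log2 fold change of the 9 genes but did not pass the threshold. It was at 500 and 359 CPM in male VAT Treg and at 18.8 and 34.4 CPM in female VAT Treg. The sexes did not overlap, with a log2 fold change of 4.17 with an SE of 1.15 (edgeR adjusted p = 0.0925). Ccr1 varied strongly between replicates of other groups, as in male VAT CD4 T cells, at 0 and 16.6 CPM. Without a filter on low counts the adjusted p was 0.00654, and without the 4 T cell libraries highest in markers of other cells the log2 fold change was 4.92 and the adjusted p 0.00305. Macrophage markers together reached 573 and 2674 CPM in male against 168 and 1383 CPM in female VAT Treg. Neutrophil markers together reached 544 and 555 CPM in male against 40.8 and 167 CPM in female VAT Treg; nearly all of the male sum was Mmp9 (537 and 529 CPM), with S100a8 and S100a9 at no more than 12.7 CPM. The part of other cells in the levels of Ccr1 was not tested.

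Ccr8, a receptor gene of Treg in tissues, was at 73.8 and 90.1 CPM in male against 221 and 133 CPM in female VAT Treg. These values did not overlap, yet the log2 fold change of -0.99 (SE 0.32) had an edgeR adjusted p of 0.226. Ccr6, known from T helper 17 cells and B cells, was at 7.10 and 4.09 CPM in males against 28.9 and 25.6 CPM in females, a log2 fold change of -2.13 with an SE of 0.88 (adjusted p = 0.481). It too lay lower in both male libraries without passing the threshold. Markers of B cells, which express Ccr6, moved with it, at 460 and 1178 CPM in male against 3172 and 1908 CPM in female VAT Treg, and their part was not tested. Cxcr4, a receptor that retains cells in bone marrow and other niches, was at 669 and 495 CPM in males against 1561 and 666 CPM in females. Here the sexes overlapped in CPM, though on the deposited log2 FPKM both male libraries lay lower, and the log2 fold change was -0.80 (SE 0.33, adjusted p = 0.478). Without female replicate 2, whose level lay among the males, it was -1.31 and passed (adjusted p = 0.0387). Ccr4, a receptor gene of Treg and T helper 2 cells, overlapped between the sexes at 154 and 69.1 CPM in males against 153 and 136 CPM in females. Cx3cr1, typical of monocytes and cytotoxic T cells, also overlapped and stayed at or below 20.1 CPM.

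**Figure D2:**
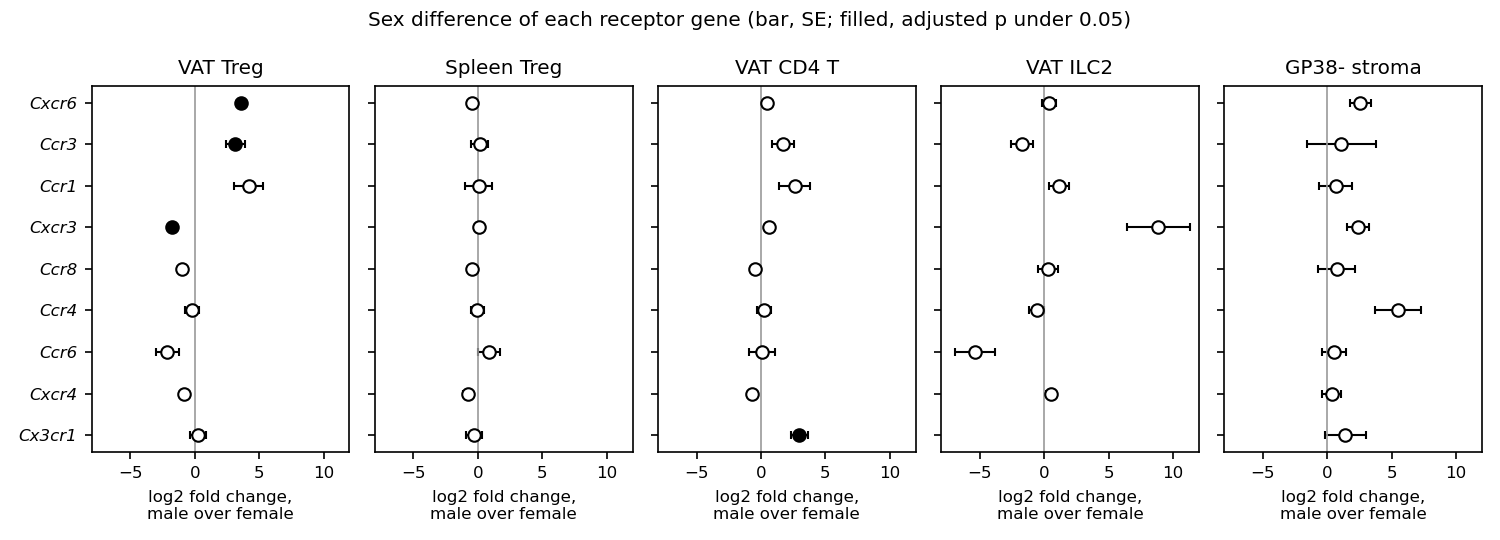
Log2 fold change, male over female, of each receptor gene in 5 sorted cell populations; bars are SE, and filled points had an edgeR adjusted p under 0.05. Filled points are Cxcr6, Ccr3 and Cxcr3 in VAT Treg and Cx3cr1 in VAT CD4 T cells; Cx3cr1 was not tested in ILC2, and the ILC2 value of Cxcr3 is against female libraries with no reads of the gene.

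In spleen Treg none of the 9 genes was called between the sexes by edgeR or by DESeq2, beside 0.075% of all genes. Their log2 fold changes lay between -0.81 and 0.87, the lowest adjusted p was 0.794, and 1 of 9 had an unadjusted p under 0.05. In CPM 5 of 9 genes did not overlap between the sexes, beside 33.5% of 14838 genes with a read; on the deposited log2 FPKM these were 3 of 9, beside 41.2% of 13581 genes with values. Cxcr6 was at 54.2 and 30.5 CPM in female against 29.7 and 28.5 CPM in male spleen Treg. Cxcr3 was at 566 and 486 CPM in female against 551 and 516 CPM in male spleen Treg, with full overlap. The gene with an unadjusted p under 0.05 was Cxcr4, at 472 and 646 CPM in females against 314 and 292 CPM in males (log2 fold change -0.81, SE 0.33).

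In VAT CD4 T cells the called gene was Cx3cr1, beside 1.48% of all genes. It was at 45.1 and 51.9 CPM in males against 2.32 and 9.68 CPM in females. The male libraries lay well above the female ones, a log2 fold change of 2.95 with an SE of 0.65 (edgeR adjusted p = 0.0317). The call was lost without female replicate 1 (log2 fold change 2.30, adjusted p = 0.181) and with only the 4 libraries compared (0.527). Macrophage markers together reached 485 and 5140 CPM in male against 246 and 334 CPM in female CD4 T cells. Their part in Cx3cr1 was not tested. Cxcr6 was at 399 and 447 CPM in males against 271 and 307 CPM in females, which did not overlap but differed by a log2 fold change of 0.47 that did not pass. Cxcr3 was at 620 and 410 CPM in males against 334 and 315 CPM in females (log2 fold change 0.59, SE 0.21, edgeR adjusted p = 0.188). It passed without male replicate 2, the library with most macrophage RNA (0.86, adjusted p = 0.037), and in DESeq2 (adjusted p = 0.0177). Ccr1 (2.61, SE 1.21, adjusted p = 0.354) turned to -8.22 without that library, a fitted value against a male library with no read of it, and passed without male replicate 1 (3.55, adjusted p = 0.0376).

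The sex difference of Cxcr6 and Cxcr3 in VAT Treg was then tested against that of the other T cells. Against spleen Treg the interaction called 2 of 9 genes, beside 0.531% of all genes. Cxcr6 had a log2 difference of 4.07 (SE 0.44, edgeR adjusted p = 2.32e-04) and Cxcr3 one of -1.84 (SE 0.29, adjusted p = 0.00418). The other genes with an unadjusted p under 0.05 were Ccr1 (4.13, adjusted p = 0.386), Ccr3 (3.01, adjusted p = 0.276) and Ccr6 (-3.0, adjusted p = 0.49). With only the groups compared in the fit, Ccr3 passed (3.04, edgeR adjusted p = 0.0491). Without the 4 T cell libraries highest in markers of other cells, the log2 difference of Ccr1 was 4.87. Against VAT CD4 T cells Cxcr6 and Cxcr3 were again called, beside 0.317% of all genes. Cxcr6 differed by 3.12 (SE 0.44, adjusted p = 0.00316) and Cxcr3 by -2.33 (SE 0.30, adjusted p = 0.0015). Both interactions use the same VAT Treg libraries. With only the groups compared in the fit, the interaction with VAT CD4 T cells called neither gene (adjusted p = 0.353 for both).

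**Figure D3:**
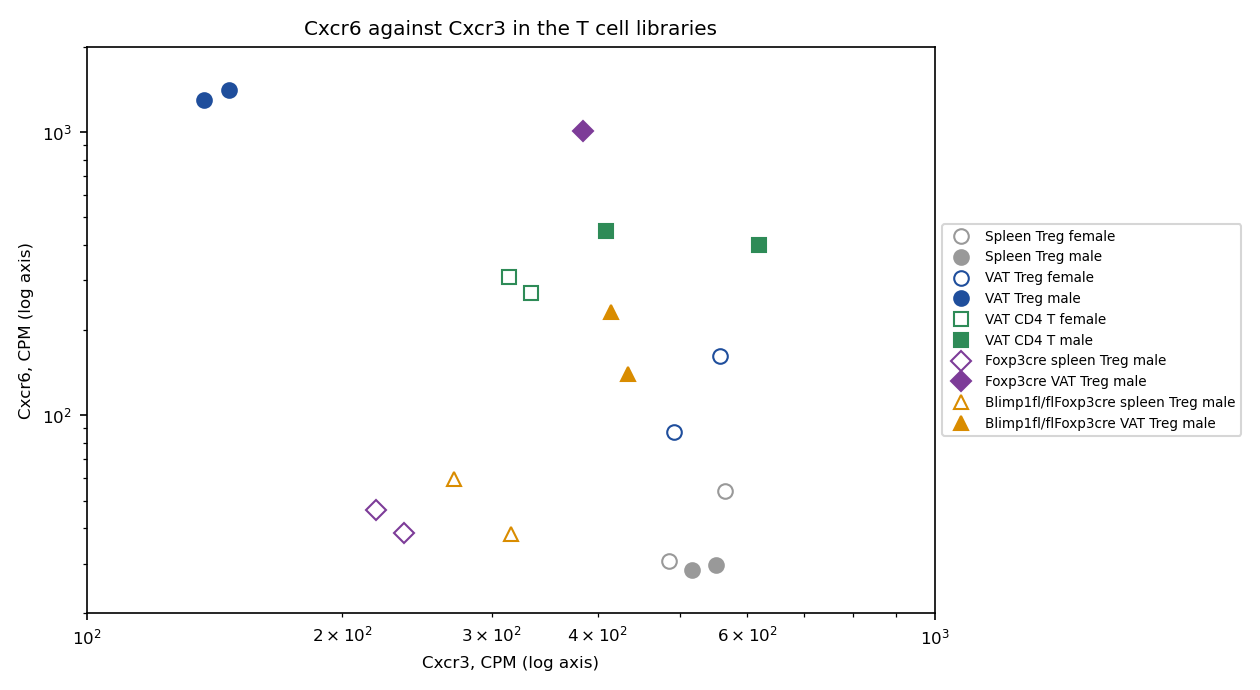
Cxcr6 against Cxcr3 in the 19 T cell libraries, both in CPM on log axes; each point is 1 library. Filled symbols are male Foxp3RFP groups and VAT groups of the Foxp3cre and Blimp1fl/flFoxp3cre mice, and open symbols are female or Cre spleen groups. Male VAT Treg lie alone at the upper left, with Cxcr6 at 1408 and 1305 CPM and Cxcr3 at 147 and 137 CPM; the Foxp3cre VAT library shares the high Cxcr6 at 1012 CPM but has Cxcr3 at 385 CPM.

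Between VAT and spleen, male Treg of Foxp3RFP mice differed in 4 of 9 genes, beside 6.56% of all genes. Cxcr6, Ccr1 and Ccr3 were higher in VAT and Cxcr3 was lower. Cxcr6 rose from 29.7 and 28.5 CPM in spleen to 1408 and 1305 CPM in VAT, a log2 fold change of 5.60 with an SE of 0.37 (edgeR adjusted p = 3.83e-08). Ccr1 was at 16.4 and 7.33 CPM in spleen against 500 and 359 CPM in VAT (5.24, SE 1.21, adjusted p = 0.012). Ccr3 was at 29.9 and 20.8 CPM in spleen against 357 and 233 CPM in VAT (3.61, SE 0.74, adjusted p = 0.00519). Cxcr3 fell by 1.85 on the log2 scale (SE 0.21, adjusted p = 2.55e-05). Ccr1 lost its call without either spleen library (adjusted p = 0.106 and 0.152) or VAT replicate 1 (0.0501), and Ccr3 without either spleen library (0.0691 and 0.092), so that 2 genes were called without either spleen library. Ccr6 (-2.84, SE 0.90, adjusted p = 0.0702) and Cxcr4 (1.01, SE 0.33, adjusted p = 0.0816) missed the threshold, and both passed in DESeq2 (0.0289 and 0.013).

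In females 1 of 9 genes was called between VAT and spleen, beside 1.71% of all genes. Cxcr6 rose from 54.2 and 30.5 CPM to 87.2 and 162 CPM, a log2 fold change of 1.53 with an SE of 0.31 (edgeR adjusted p = 0.0161). This call was lost without VAT replicate 2 (1.06, adjusted p = 0.237), spleen replicate 2 (1.17, 0.1) or the 4 libraries highest in markers of other cells (1.08, 0.119). Cxcr4 had a log2 fold change of 1.00 with an SE of 0.33 (adjusted p = 0.147), close to its value in males. Without VAT replicate 2 it was 1.51 and passed (adjusted p = 0.0265). Ccr1, Ccr3 and Cxcr3, which were called in males, had no unadjusted p under 0.05 in females.

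Against VAT CD4 T cells, VAT Treg of both sexes were marked by Ccr8 and Ccr3. In males 5 of 9 genes were called, beside 2.43% of all genes, and in females also 5, beside 3.54%. Ccr8 was at 12.3 and 10.7 CPM in male against 13.4 and 17.0 CPM in female CD4 T cells, below every Treg library. Its log2 fold change, Treg over CD4, was 2.90 in males (SE 0.35, edgeR adjusted p = 6.52e-05) and 3.41 in females (SE 0.35, adjusted p = 1.84e-05). Ccr3 was at 5.40 and 1.69 CPM in male against 1.97 and 0 CPM in female CD4 T cells. Its log2 fold change was 6.52 in males (SE 0.86, adjusted p = 1.71e-04) and 5.06 in females (SE 0.86, adjusted p = 0.0017). Ccr4, at 11.4 to 49.4 CPM in CD4 T cells, passed in females (2.44, SE 0.54, adjusted p = 0.0146) and not in males (1.98, SE 0.53, adjusted p = 0.0579). Ccr6 was nearly absent from CD4 T cells, at 0 to 1.37 CPM, and passed in females (5.15, SE 1.06, adjusted p = 0.00854) but not in males (2.95, SE 0.95, adjusted p = 0.15). In males Ccr4 also passed in DESeq2 (0.00953), without a filter (0.00649), with the replicate block (0.0239) and without the 4 libraries highest in markers of other cells (0.0452), and Ccr6 passed in DESeq2 (0.0449), without a filter (0.0414) and without those 4 libraries (0.011).

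Cxcr6 lay on opposite sides of the CD4 T cells in the 2 sexes. It was higher in Treg than in CD4 T cells in males (1.75, SE 0.31, edgeR adjusted p = 0.00318) and lower in females (-1.37, SE 0.31, adjusted p = 0.0159). Cxcr3 was lower in male Treg than in male CD4 T cells (-1.79, SE 0.21, adjusted p = 6.52e-05), while in females its value was 0.55 (SE 0.21, adjusted p = 0.184). Ccr1 was called in males (5.72, SE 1.24, adjusted p = 0.0155) and not in females (4.16, SE 1.25, adjusted p = 0.0799). Of the female calls, Cxcr6 was lost without either CD4 library (adjusted p = 0.0779 and 0.101) or Treg replicate 1 (0.183), Ccr4 without CD4 replicate 2 (0.189) or Treg replicate 1 (0.0714), and Ccr6 without CD4 replicate 2 (0.0699). Of the male calls, Ccr1 was lost without Treg replicate 1 (0.0665). With only the groups compared in the fit, no male call and 1 of 5 female calls remained.

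Foxp3cre males, sorted by YFP rather than RFP, gave a second view of VAT against spleen, with 1 VAT library. Here 5 of 9 genes were called, beside 4.92% of all genes. Cxcr6 was at 1012 CPM in VAT and at 46.4 and 38.5 CPM in spleen, a log2 fold change of 4.47 with an SE of 0.37 (edgeR adjusted p = 1.31e-06). Ccr1 was at 255 CPM in VAT and 2.26 and 13.6 CPM in spleen (4.87, SE 1.26, adjusted p = 0.0306). Ccr3 was at 273 CPM in VAT and 13.6 and 24.8 CPM in spleen (3.70, SE 0.80, adjusted p = 0.00921). Male VAT Treg of the Foxp3RFP mice had 359 and 500 CPM of Ccr1 and 233 and 357 CPM of Ccr3. Cxcr4 was at 1257 CPM in VAT and 236 and 261 CPM in spleen (2.23, SE 0.39, adjusted p = 0.00173). Ccr8 (1.22, SE 0.38, edgeR adjusted p = 0.0769) missed the threshold. It passed in DESeq2 (0.0214), with DESeq2's size factors in edgeR (0.0468) and without a filter (0.0423). Ccr6 had no read among 38857842 in VAT and was at 12.4 and 19.9 CPM in spleen, at least 209-fold lower against a floor of 3 counts in that library, or 0.0772 CPM (adjusted p = 0.00386; the bound covers counting error). B cell markers were also lower there, at 316 CPM against 2754 and 6492 CPM in spleen, and their part in Ccr6 was not tested. The calls of Ccr1 and Ccr3 were lost without spleen replicate 1 (adjusted p = 0.184 and 0.0957), and that of Ccr1 also without spleen replicate 2 (0.0539), in DESeq2 (0.0625) and with the replicate number as a block (0.0719).

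Cxcr3 did not fall from Foxp3cre spleen to the Foxp3cre VAT library, where DESeq2 called it higher (log2 fold change 0.70, DESeq2 adjusted p = 0.0298). It was at 385 CPM there and at 219 and 237 CPM in Foxp3cre spleen (log2 fold change 0.64, SE 0.25, edgeR adjusted p = 0.173), while in the Foxp3RFP males it was lower in VAT. The difference between these VAT-to-spleen changes was -2.49 (SE 0.32, adjusted p = 0.00725). Cxcr3 was the 1 of 9 genes called in this contrast, beside 0.0115% of all genes. The call was lost without Foxp3RFP spleen replicate 1 (adjusted p = 0.0811) and with only the groups compared in the fit (0.0784). Ccr6 had a fitted difference of 9.09 that did not pass in edgeR (adjusted p = 0.73) and passed in DESeq2 (0.0477). Reporter, Cre allele and sorted fluorescence differ together between the mice and cannot be told apart, and the age of the Foxp3RFP spleen mice is not on the label.

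In the libraries labelled Blimp1fl/flFoxp3cre, Cxcr6 and Ccr3 in VAT Treg were lower than in the Foxp3cre library and Ccr6 was higher, 3 of 9 genes beside 0.819% of all genes. Cxcr6 was at 232 and 140 CPM against 1012 CPM, a log2 fold change of -2.48 with an SE of 0.35 (edgeR adjusted p = 0.00141). Markers listed for ILC2 moved with it, at 740 and 634 CPM against 5650 CPM, and the part of such cells was not tested. Ccr3 was at 8.34 and 4.88 CPM against 273 CPM (-5.40, SE 0.85, adjusted p = 0.00369). Ccr6 was at 58.1 and 63.4 CPM against no read, at least 787-fold higher against the same floor (adjusted p = 0.00642). B cell markers together reached 1045 and 1294 CPM in these libraries and 316 CPM in the Foxp3cre library, and their part in Ccr6 was not tested. Ccr1 was at 25.1 and 13.2 CPM against 255 CPM and did not pass (-3.77, SE 1.22, adjusted p = 0.236), though it did without a filter (0.036) and with only the groups compared (0.0141). Cxcr3 was at 415 and 434 CPM against 385 CPM. Treg markers together reached 1428 and 1256 CPM in the libraries labelled Blimp1fl/flFoxp3cre and 3169 CPM in the Foxp3cre library. The part of this difference in the receptor levels was not tested. The call of Ccr3 was lost without either library labelled Blimp1fl/flFoxp3cre (adjusted p = 0.0524 and 0.11). With 1 control library, the spread of that group was taken from the other groups, and a result for that library cannot be told apart from one for its genotype.

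In spleen, 1 of 9 genes was called between the same genotypes, beside 0.317% of all genes. Cxcr4 was at 942 and 646 CPM in the libraries labelled Blimp1fl/flFoxp3cre and at 236 and 261 CPM in Foxp3cre (1.66, SE 0.34, edgeR adjusted p = 0.0406). It was lost without Blimp1fl/flFoxp3cre replicate 1 (1.31, adjusted p = 0.46), without Foxp3cre replicate 1 (0.173) or 2 (0.291), and with only the groups compared (0.102). Ccr1, Ccr3 and Ccr4 had an unadjusted p under 0.05 there and adjusted p-values of 0.564, 0.587 and 0.609. Mean Ccr6 was 56.8 CPM in the spleen libraries labelled Blimp1fl/flFoxp3cre against 16.2 CPM in Foxp3cre, not called (edgeR adjusted p = 0.835). B cell markers there went the other way, at 1373 and 1396 against 2754 and 6492 CPM. Their part in Ccr6 was not tested.

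From spleen to VAT, the libraries labelled Blimp1fl/flFoxp3cre differed in 2 of 9 genes, beside 1.26% of all genes. Cxcr6 rose from 38.2 and 59.8 CPM to 232 and 140 CPM (log2 fold change 1.81, SE 0.31, edgeR adjusted p = 0.00529). Cx3cr1 rose from 2.94 and 5.83 CPM to 59.5 and 40.0 CPM (3.39, SE 0.66, adjusted p = 0.0137). Macrophage markers moved with it, from 216 and 118 CPM to 1538 and 1296 CPM, and their part in Cx3cr1 was not tested. Cxcr6 lost its call without spleen replicate 1 (adjusted p = 0.112) or VAT replicate 1 (0.124), and Cx3cr1 without spleen replicate 1 (0.206), spleen replicate 2 (0.107) or VAT replicate 1 (0.136). The VAT-to-spleen change was then compared between the genotypes, which called 2 of 9 genes beside 0.358% of all genes. For Cxcr6 the difference was -2.67 (SE 0.47, adjusted p = 0.0168). Ccr6 was called as higher (adjusted p = 0.0359), with a fitted value that depends on the prior count because its Foxp3cre VAT library held no read. The Cxcr6 difference was lost without Blimp1fl/flFoxp3cre spleen replicate 2 (adjusted p = 0.0722), VAT replicate 2 (0.108) or Foxp3cre spleen replicate 2 (0.0873). The Ccr6 difference was lost with the replicate block (0.101) and without any 1 of 5 libraries (adjusted p from 0.108 to 0.137).

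Cxcr6, Ccr1 and Ccr3 share their stretch of chromosome 9 with other receptor genes, so the neighbours were read along it. Ccr2, a receptor of monocytes and effector T cells whose gene starts 295.4 kb from the start of Cxcr6, was called as higher in male than in female VAT Treg (log2 fold change 2.71, SE 0.33, edgeR adjusted p = 1.18e-04). Receptor genes of this run are close in sequence, and the sources used here do not give the treatment of reads matching more than 1 of them. On the other side of Cxcr6, Fyco1 (0.59, adjusted p = 1), Ccr9 (1.91, adjusted p = 1) and Lztfl1 (1.35, adjusted p = 0.549) were not called. Xcr1, between Cxcr6 and Ccr1, was not either (2.40, adjusted p = 1). The span of Fyco1 encloses Cxcr6 on the opposite strand, and the strand setting of the counting is not given. In the libraries labelled Blimp1fl/flFoxp3cre, Ccr2 in VAT was also lower than in Foxp3cre (-3.67, adjusted p = 5.24e-05).

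**Figure D4:**
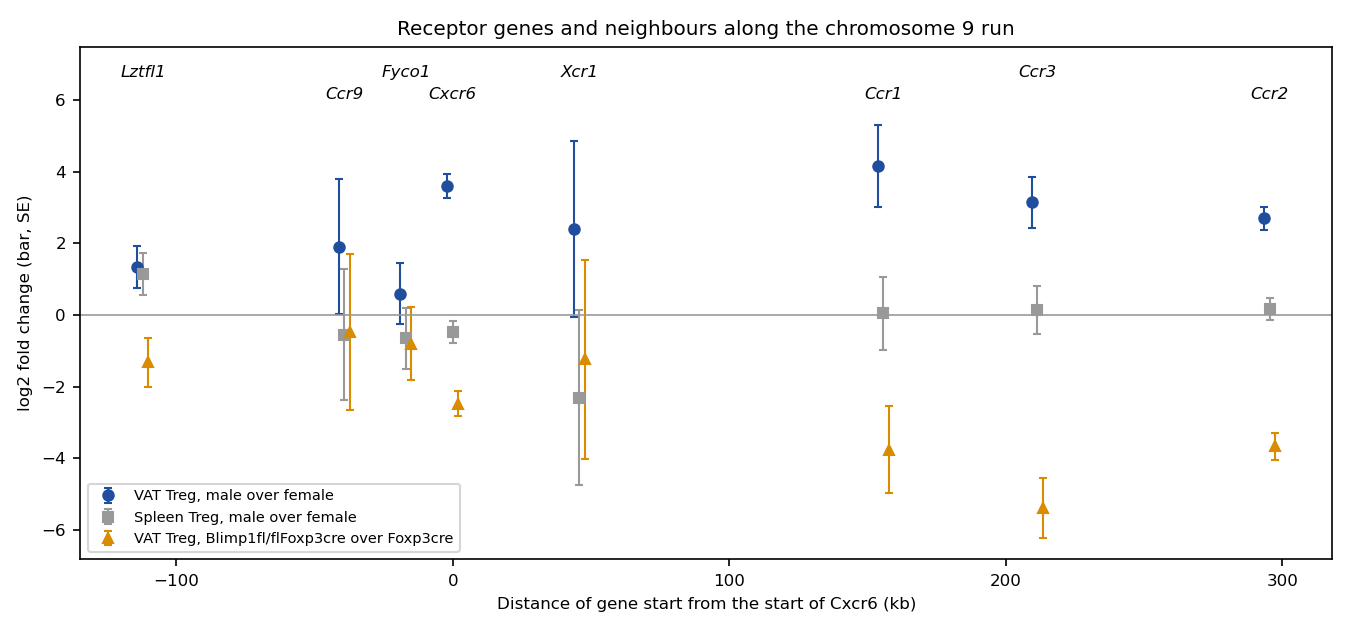
Log2 fold change of the receptor genes and their neighbours against the distance of each gene's start from the start of Cxcr6 in kb; bars are SE, and points of the 3 comparisons are shifted slightly sideways. In VAT Treg, Cxcr6, Ccr1, Ccr3 and Ccr2 lie between 2.71 and 4.17 for male over female and between -5.40 and -2.48 for Blimp1fl/flFoxp3cre over Foxp3cre, while Fyco1 lies within 1 of 0 in both; Ccr1 passed the threshold in neither comparison.

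In ILC2 the receptors of highest level were Cxcr6 and Ccr8, and their sexes overlapped. Cxcr6 was at 2195 and 3999 CPM in female against 2643 and 5073 CPM in male ILC2. Ccr8, known from ILC2 and Treg of tissues, was at 777 and 2426 CPM in females against 745 and 3085 CPM in males. For both genes the replicates of 1 sex differed more than the sexes did. Of 8 genes tested none was called by edgeR, beside 0.0375% of 13332 genes. Of the 8, 2 had an unadjusted p under 0.05, both at low levels: Ccr6 at 7.66 and 1.71 CPM in females against 0.121 and 0.077 CPM in males (4 and 3 reads), and Cxcr3 at 0 in females and 2.84 and 1.34 CPM in males. DESeq2 called Ccr6 (log2 fold change -5.45, adjusted p = 0.0384). Ccr3 was at 23.8 and 20.4 CPM in female against 11.6 and 1.44 CPM in male ILC2 and was called without male replicate 1 (-3.80, adjusted p = 0.0277). Cx3cr1, at no more than 1.12 CPM, did not pass the filter on low counts. Libraries of ILC2 and stroma were made with another kit than those of T cells, so levels across the kits are given side by side with no test.

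In GP38-negative stroma Cxcr6 was the leading receptor gene, and it was higher in both male libraries. It was at 336 and 202 CPM in females against 1413 and 1614 CPM in males, a log2 fold change of 2.56 with an SE of 0.80 (edgeR adjusted p = 0.207). Cxcr3 was at 16.1 and 15.7 CPM in females against 76.7 and 81.5 CPM in males (2.38, SE 0.89, adjusted p = 0.279). Neither difference passed, although the sexes did not overlap. Of 9 genes none was called by edgeR or DESeq2, beside 0.89% of 16413 genes, and 3 had an unadjusted p under 0.05, these 2 and Ccr4, which was at 0.243 and 0.0971 CPM in females against 11.5 and 3.38 CPM in males (5.47, adjusted p = 0.258). Leukocyte RNA moved with the sex of these libraries. T cell markers together reached 253 and 253 CPM in female against 836 and 1014 CPM in male libraries, with Cd3e at 52.9 and 42.5 against 229 and 246 CPM. Ptprc, the gene of CD45, was at 221 and 223 CPM in females against 366 and 454 CPM in males, and markers of NK and CD8 T cells at 1142 and 1164 against 1719 and 1263 CPM. Cd4 was at 4.07 to 15.6 CPM in all 4 libraries and Foxp3 at no more than 5.9 CPM. The part of leukocytes in the levels of Cxcr6 and Cxcr3 was not tested. In GP38-positive stroma the 9 genes were at no more than 4.99 CPM in any library, and none was called between the sexes by edgeR or DESeq2, beside 0.335% of all genes, with 1 of 9 at an unadjusted p under 0.05.

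Whole VAT, epididymal in males and periovarian in females, held the receptors at low levels. Between the sexes 3 of 9 genes were called, all higher in males, beside 13.1% of 16917 genes. Ccr3 was at 0.363, 0.313 and 0.239 CPM in females and 2.44, 1.57 and 2.35 CPM in males, a log2 fold change of 2.74 with an SE of 0.43 (edgeR adjusted p = 0.00105). Cxcr4 was at 8.67, 9.91 and 8.64 CPM in females and 22.1, 21.5 and 16.7 CPM in males (1.12, SE 0.14, adjusted p = 9.87e-05). Cx3cr1 was at 1.91, 4.59 and 3.29 CPM in females and 8.00, 7.44 and 7.43 CPM in males (1.21, SE 0.29, adjusted p = 0.0135), and was lost without male replicate 1 (adjusted p = 0.0597). For these 3 genes every male library lay above every female one. Macrophage markers were at 978 to 1106 CPM in female and 2756 to 3120 CPM in male whole VAT, and leukocyte markers at 147 to 169 and 412 to 442 CPM; their part in the 3 genes was not tested. Cxcr6, at 1.88 to 2.40 CPM, was not called between the sexes in whole VAT.

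The ligands of these receptors came from different cells of VAT, in CPM per library. Cxcl16, the ligand of CXCR6, was highest in female GP38-positive stroma. In GP38-positive stroma it was at 123 and 180 CPM in females against 48.4 and 60.2 CPM in males, and lay at 13.1 to 22.8 CPM in female and 21.2 to 24.7 CPM in male whole VAT. Ccl11, a ligand of CCR3, was at 1019 and 1149 CPM in female against 1179 and 1665 CPM in male GP38-positive stroma. None of 16 ligand genes was called between the sexes in GP38-positive stroma by edgeR, beside 0.335% of all genes, and 7 had an unadjusted p under 0.05. In GP38-negative stroma Ccl11 was lower in males, at 130 and 96.1 against 327 and 421 CPM (log2 fold change -1.67, SE 0.25, edgeR adjusted p = 0.0394). Cxcl12, the ligand of CXCR4, was lower in the same male libraries, at 389 and 356 against 733 and 821 CPM (-1.0, SE 0.16, adjusted p = 0.0439). Of 16 ligand genes tested in GP38-negative stroma these 2 were called lower and none higher, beside 0.89% of all 16413 genes called. The median log2 fold change of the list was 1.00 beside 0 over all genes. Ccl1, the ligand of CCR8, was found in ILC2, at 347 and 959 CPM in females against 183 and 390 CPM in males. In whole VAT 4 of 17 ligand genes were higher in males and none lower, beside 1419 higher and 797 lower of all 16917 genes (13.1%), with a median log2 fold change of 0.33 beside -0.03 over all genes: Ccl9 (1.89) and Ccl6 (1.47), ligands of CCR1 in the mouse, and Ccl3 (2.57) and Ccl4 (1.74) at means of no more than 1.66 CPM.

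**Figure D5:**
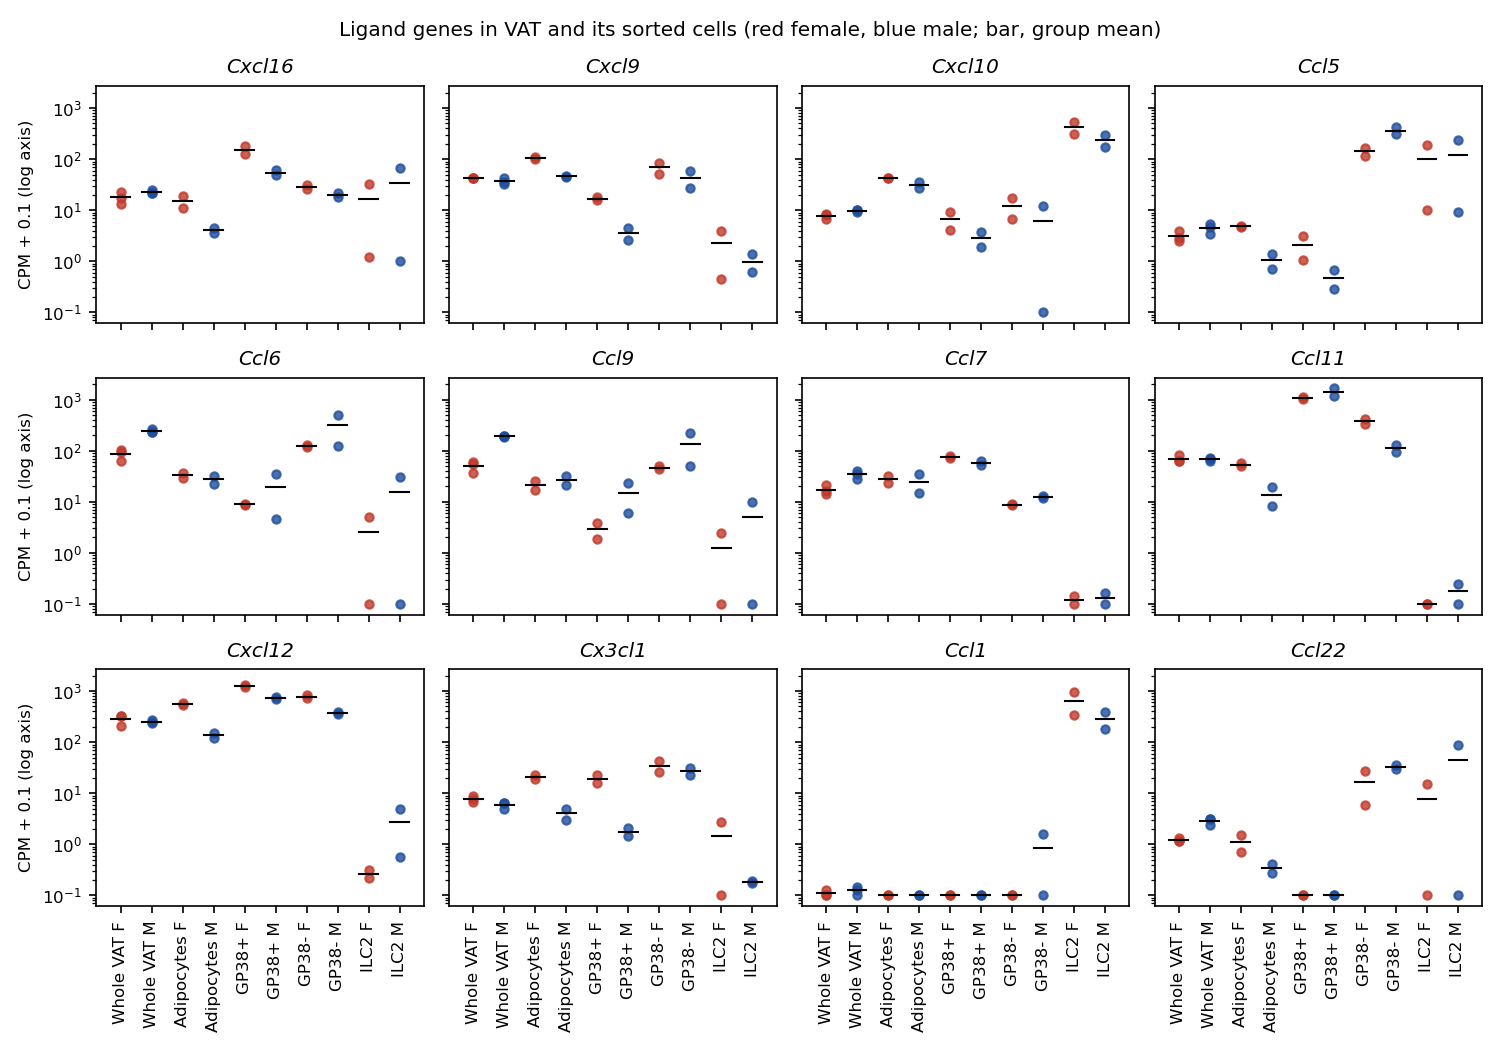
Levels of 12 ligand genes in whole VAT, VAT adipocytes, GP38-positive and GP38-negative stroma and ILC2, in CPM + 0.1 on a log axis; each point is 1 library, red for female and blue for male, and bars are group means. Cxcl16 is highest in female GP38-positive stroma, Ccl11 and Cxcl12 are highest in GP38-positive stroma within each sex, and Ccl1 lies at 183 to 959 CPM in ILC2.

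Other genes of the pathway were read from lists of related receptors, signalling proteins and adhesion molecules. In VAT Treg, male against female, 2 of 14 other chemokine receptor genes were called, beside 1.61% of all genes in this comparison. Ccr2 was higher and Cxcr5, the follicular homing receptor gene, was lower (log2 fold change -2.71, SE 0.26, edgeR adjusted p = 8.36e-06). The list's median was 0.26 beside -0.04 over all genes. None of 20 signalling genes was called by edgeR, 7 with an unadjusted p under 0.05, and their median was 0.18. Of 19 ligand genes none was called by edgeR in these cells either, 1 with an unadjusted p under 0.05, and their median was -0.55. Of 15 adhesion and egress genes 2 were higher and 3 lower, beside 125 higher and 155 lower of all 17340 genes (1.61%), with a median of -0.01. The higher ones were Cd69, which keeps T cells in tissue by blocking egress (3.06, SE 0.37, adjusted p = 1.10e-04), and Cd44 (1.62). Among the lower ones were the integrin genes Itgb1 (-1.11) and Itgae (-2.25). In spleen Treg no gene of these 4 lists was called between the sexes by edgeR, beside 0.075% of all genes. In each list 1 or 2 genes had an unadjusted p under 0.05. From spleen to VAT in males, 4 of 20 signalling genes were higher and 1 lower, beside 608 higher and 529 lower of all 17340 genes (6.56%), among them Rgs2 (4.48), a brake on G protein signalling, and Dock2 (1.41), which drives migration of lymphocytes; Rgs10 was lower (-1.57). The signalling list's median was 0.45 beside 0.02 over all genes. In VAT CD4 T cells Ccl9 (4.34, adjusted p = 0.0429) and the integrin gene Itgb2 (0.81, adjusted p = 0.0352) were higher in males. Ccl9 was at 39.2 and 596 CPM in males against 18.3 and 11.3 CPM in females, and the male library at 596 CPM is the one with 5140 CPM of macrophage markers; their part in Ccl9 was not tested.

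Across the 19 T cell libraries, each receptor was set beside the 3 genes whose log2 CPM followed it most closely by Pearson's r. Libraries of 1 group are not independent points, and r is given as a description. Cxcr6 was closest to Ier2 (0.953), an immediate early gene, Klf6 (0.937) and Btg2 (0.934). Ier2 was at 655 and 495 CPM in male against 186 and 319 CPM in female VAT Treg. Ccr3 was closest to Dnajb13 (0.934), Samsn1 (0.922) and Sdc4 (0.904), and Ccr1 to Dennd5a (0.894), Nucb2 (0.883) and Mt1 (0.879). Ccr8 lay closest to Nfkb2 (0.906), Tnfrsf4 (0.899), the gene of the costimulatory receptor OX40, and Jak3 (0.895). Cx3cr1 lay closest to the monocyte and macrophage genes Cd14 (0.840), F13a1 (0.829) and Csf1r (0.822). Ccr4 was closest to Ttpal (0.911), Ccr6 to Cacna1s (0.922), Cxcr4 to Zfp36l2 (0.836) and Cxcr3 to Sla (0.763), the lowest first value of the 9 genes.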

How the data were processed

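RNA was sequenced from pools of mice. The authors deposited a table of whole-number read counts for 27179 genes and, per library, log2 FPKM values. The submitters' processing notes name Subread 1.6.2, featureCounts and limma, with GRCm38 and mm10 as builds. How FPKM were normalized, the settings, the annotation and the use of strand were not given in the sources used here. Per the labels' protocols, stroma and ILC2 went through a Clontech kit and the other samples through TruSeq. Count columns were matched to libraries by name, and 6 columns that matched no sample were left out. The deposited files named 16534 identifiers and RefSeq (GRCm38.p6) another 8784, leaving 1861 without a name. Coordinates, promoters and motif windows are from RefSeq GRCm38.p6, in which all 9 genes were found.

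Tests on counts used edgeR 4.0.16 (quasi-likelihood) in R 4.3.3, with TMM factors, filterByExpr by group, group as the term, and Benjamini-Hochberg adjustment over all genes tested. There were 4 fits, over 19 T cell, 4 ILC2, 8 stromal and 14 fat and adipocyte libraries, and 19 comparisons. An SE was taken as the size of the log2 fold change over the root of its F statistic. CPM are not TMM-scaled, while log2 fold changes are. A group with no read was given a floor of 3 counts over the group; floors cover counting error alone. Nothing in the labels names animals shared between libraries. The call was also run on counts simulated from the T cell fit's own means and dispersions, so that run cannot test the model's assumptions.

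The receptor genes, the lists and the tests were chosen with earlier results of these data known, and 2 comparisons, those of VAT-to-spleen changes between mouse lines, were added after the data were seen. All 9 receptors are named; of the lists, called genes were eligible, up to 6 per list and comparison by smallest adjusted p, and part of them is given; results for some other genes are not reported here. Alternatives were followed for receptors with an unadjusted p under 0.05 and for those listed for a closer look, a choice made after the data were seen. The 3 most similar genes were ranked by Pearson's r of log2 CPM with a prior count of 2, leaving out predicted genes. Alternatives were DESeq2 1.42.0, its size factors in edgeR, no filter, a fit of only the groups compared, a block for replicate number, leaving out each library, and leaving out the 4 T cell libraries highest in summed markers of other cells. Libraries of every group with more than 1 differed beyond sampling noise. Replicate numbers were not taken to pair libraries, as the labels name no shared animals. Correlations of deviations between T cell groups ran from -0.0798 to 0.276, with 3 of 36 pairs over 0.1. Most of these pairs differ in sex or mouse line, so their count cannot decide whether libraries are paired. The value for the pair of ILC2 groups was 0.355. Titles of male GP38-positive stroma give replicate numbers that conflict.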

Additional observations from a re-analysis of the deposited data

Results flagged for a closer look

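Tests of a difference between sex effects called Cxcr6 and Cxcr3 in VAT Treg of Foxp3RFP mice. The sex difference of Cxcr6 was larger in VAT than in spleen Treg by 4.07 on the log2 scale and larger in VAT Treg than in VAT CD4 T cells by 3.12. For Cxcr3 the same differences were -1.84 and -2.33, so this gene moved the opposite way. Against spleen Treg, Ccr1 had a difference as large as that of Cxcr6, at 4.13 with an SE of 1.49. Ccr3 had 3.01 with an SE of 0.96, and neither passed in the main fit. Both contrasts use the same VAT Treg libraries.

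The change from spleen to VAT also differed between mouse lines. For Cxcr6 it was smaller in the libraries labelled Blimp1fl/flFoxp3cre than in Foxp3cre Treg, a log2 difference of -2.67. For Ccr6 the fitted difference was 11.9, which depends on the prior count because the Foxp3cre VAT library held no read of Ccr6. For Cxcr3 the change differed between Foxp3RFP and Foxp3cre males by -2.49. Each of these rests on the 1 Foxp3cre VAT library, whose source text says spleen.

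Some receptors had male and female libraries that lay apart in CPM, in opposite directions in different cells. These differences between cell types were not tested, and a mean of at least 5 CPM in the higher sex was required after the list had been seen. With so few libraries per group, lying apart is common. In spleen Treg it held for 33.5% of genes by CPM and 41.2% by deposited log2 FPKM. Ccr3 had a log2 fold change, male over female, of 3.15 in VAT Treg and -1.75 in ILC2. Cxcr3 had -1.74 in VAT Treg and 2.38 in GP38-negative stroma. Ccr8 was lower in male T cells, at -0.99 in VAT Treg, -0.47 in spleen Treg and -0.47 in VAT CD4 T cells, and at 0.73 in GP38-negative stroma. Cxcr4 had -0.81 in spleen Treg and -0.67 in VAT CD4 T cells against 0.49 in ILC2. Cxcr6 had -0.47 in spleen Treg against 0.47 in VAT CD4 T cells and 2.56 in GP38-negative stroma. Cx3cr1 had -0.30 in spleen Treg against 2.95 in VAT CD4 T cells and 1.41 in GP38-negative stroma. On the deposited log2 FPKM the spleen Treg libraries overlapped between the sexes for Cxcr6 and Cx3cr1. Of all these values, edgeR called only Ccr3 and Cxcr3 in VAT Treg and Cx3cr1 in VAT CD4 T cells. In GP38-negative stroma T cell and leukocyte markers were also higher in the male libraries.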

How the results depend on the processing

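The counts of receptor genes called depended most on how many libraries shared the estimate of spread. With only the groups compared in the fit, the number called fell to 0 between the sexes in VAT Treg (from 3) and in VAT CD4 T cells (from 1), to 0 between VAT and spleen in females (from 1), to 0 in males (from 5) and 1 in females (from 5) between Treg and CD4 T cells, to 0 between genotypes in spleen (from 1), to 0 in the interaction of sex with Treg and CD4 T cells (from 2) and to 0 in the difference between Foxp3RFP and Foxp3cre males (from 1); fewer samples enter these fits. The ILC2 fit holds only the groups compared already. DESeq2 called 2 genes between the sexes in VAT CD4 T cells, 2 between VAT and spleen in females, 2 in the difference between Foxp3RFP and Foxp3cre males and 1 in ILC2 (from 0). Without the 4 T cell libraries highest in markers of other cells, 2 genes were called between the sexes in VAT CD4 T cells. Same-numbered libraries are not known to be paired, and with the replicate number as a block 1 gene was called in the difference between genotypes (from 2); the block moved none of the other 18 counts by over 1.5 times. DESeq2's size factors and no filter on low counts moved none of 19 counts by over 1.5 times. On the deposited log2 FPKM, 3 of 9 genes did not overlap between the sexes in spleen Treg (41.2% of all genes), against 5 in CPM (33.5%).

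Leaving out 1 library at a time, the number called ranged from 2 to 3 between the sexes in VAT Treg, 0 to 2 in VAT CD4 T cells, 2 to 4 between VAT and spleen in males and 0 to 1 in females, and 4 to 6 in males and 2 to 5 in females between Treg and CD4 T cells. It was 4 for Foxp3cre VAT against spleen, 0 to 2 for the libraries labelled Blimp1fl/flFoxp3cre, 2 between these genotypes in VAT and 0 to 1 in spleen. It ranged from 2 to 2 for the interaction with spleen, 2 to 3 for that with CD4 T cells, 0 to 2 and 0 to 1 for the differences of Blimp1fl/flFoxp3cre and of Foxp3RFP mice from Foxp3cre, 0 to 1 in ILC2 and 2 to 4 in whole VAT. It stayed at 0 in spleen Treg between the sexes and in both stromal populations. Leaving out the single Foxp3cre VAT library leaves no such group.

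Of single-gene values, the log2 fold change of Ccr1 between the sexes in VAT CD4 T cells (2.61) turned to -8.24 without the 4 libraries highest in markers of other cells and ranged from -8.22 to 4.63 when 1 library was left out; it was -8.22 without male replicate 2. Both negative fits leave a male library with no read of Ccr1. That of Cxcr6 in spleen Treg (-0.47) ranged from -0.84 to 0.024 when 1 library was left out, with the positive value without female replicate 1. In ILC2, Ccr6 in males (0.077 and 0.121 CPM) rested on few reads and is limited by depth, and Cxcr3 had no read in females.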
